A study of Mus musculus with 34 samples.

Results

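JunB binding was compared between activated and resting thioglycollate elicited macrophages (TGEMs), which are mouse peritoneal macrophages drawn in by thioglycollate, a sterile irritant. The JunB list after Kdo2 lipid A (KLA), a TLR4 agonist, held 13375 peaks and the list after vehicle (Veh) held 463. Peaks that overlapped by 1 bp or more were taken as 1 locus, which gave 13593 JunB loci out of 93075 loci over the 29 peak lists of the series. Of these JunB loci, 13130 had a peak in KLA only (96.6%, 95% CI 96.3 to 96.9), 245 had a peak in both treatments and 218 had a peak in Veh only.

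The cells of both treatments came from male C57BL/6 mice aged 8 weeks, which the labels call C57Bl/6EiJ and the methods C57BL/6J. They were cultured and then treated for 1 h with 100 ng/mL KLA or with PBS as Veh, double crosslinked and precipitated with a JunB antibody (sc-73). Peaks were called by the authors against the input of the same treatment, and only peaks reproducible between replicate experiments (irreproducible discovery rate, IDR, under 0.05) were kept. Each condition is therefore 1 list in which the replicates are already combined, so no test between treatments was possible. In such bulk lists, fewer cells with binding and less binding per cell cannot be told apart. The 95% intervals given here (Wilson for a share, Newcombe for a difference between shares) cover counting error over loci only, and loci are not replicate animals. The same lists for Jun, JunD, ATF3, Fos, FosL2, PU.1 and CEBPα in both treatments, for PPARg in Veh, and for JunB in BALB/cJ TGEMs, were set beside the JunB loci.

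AP-1 is a family of transcription factors that bind DNA as dimers through a basic leucine zipper. JunB, Jun and JunD form the Jun subfamily, and each can pair with a Fos subfamily member. The classical AP-1 site is the TRE, and a variant with an extra central base is the CRE. In macrophages, TLR4 agonists activate NF-κB and induce several AP-1 genes within the first hour, while PU.1 and CEBP factors mark much of the enhancer repertoire of the cells at rest.

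The sequences of 6 JunB peaks are given as examples (mm10, plus strand, positions as in the peak lists, capitals for the TRE letters TGACTCA or their reverse complement TGAGTCA). They were picked for high counts and need not be typical of their classes. The Itga5, Pfkfb3 and Btg1 loci had the highest JunB counts among the KLA-only loci, the Bach2 locus was the strongest KLA-only locus without a peak of any other AP-1 member, the Dusp1 locus shared the highest KLA count found in both treatments with the Dhx34 locus and the 1700011L22Rik locus was the strongest found in Veh only. Each is named for the protein-coding gene with the nearest transcription start site (TSS), which need not be its target.
Itga5 locus, chr15:103370515-103370749, plus strand: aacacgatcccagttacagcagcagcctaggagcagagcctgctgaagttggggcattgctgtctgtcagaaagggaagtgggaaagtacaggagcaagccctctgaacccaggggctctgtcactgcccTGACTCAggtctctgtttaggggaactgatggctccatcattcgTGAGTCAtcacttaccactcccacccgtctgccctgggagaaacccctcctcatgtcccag
Pfkfb3 locus, chr2:11429710-11429912, plus strand: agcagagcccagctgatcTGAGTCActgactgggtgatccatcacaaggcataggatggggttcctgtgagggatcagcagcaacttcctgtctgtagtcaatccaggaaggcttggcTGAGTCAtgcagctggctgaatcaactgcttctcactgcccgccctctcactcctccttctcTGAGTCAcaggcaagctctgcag
Btg1 locus, chr10:96628416-96628629, plus strand: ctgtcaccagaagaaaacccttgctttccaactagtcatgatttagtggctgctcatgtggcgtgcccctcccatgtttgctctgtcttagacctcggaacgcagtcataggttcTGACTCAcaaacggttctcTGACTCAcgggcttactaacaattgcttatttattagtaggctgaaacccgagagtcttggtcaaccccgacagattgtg
Bach2 locus, chr4:32363713-32363984, plus strand: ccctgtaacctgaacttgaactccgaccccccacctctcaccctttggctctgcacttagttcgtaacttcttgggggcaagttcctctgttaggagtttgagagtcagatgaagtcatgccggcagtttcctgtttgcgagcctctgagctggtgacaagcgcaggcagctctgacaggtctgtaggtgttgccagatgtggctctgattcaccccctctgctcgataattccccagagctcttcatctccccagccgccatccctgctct
Dusp1 locus, chr17:26605625-26605858, plus strand: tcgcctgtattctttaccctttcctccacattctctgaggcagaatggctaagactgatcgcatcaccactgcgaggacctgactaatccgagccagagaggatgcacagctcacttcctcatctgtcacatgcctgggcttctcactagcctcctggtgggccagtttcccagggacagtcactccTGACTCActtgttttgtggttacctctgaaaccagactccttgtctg
1700011L22Rik locus, chr8:79243453-79243692, plus strand: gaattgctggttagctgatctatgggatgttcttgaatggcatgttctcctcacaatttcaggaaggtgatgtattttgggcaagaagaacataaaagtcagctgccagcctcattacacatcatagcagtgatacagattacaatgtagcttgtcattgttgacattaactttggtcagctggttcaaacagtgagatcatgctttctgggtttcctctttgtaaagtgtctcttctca
The Itga5 and Btg1 peaks each held 2 exact TREs and the Pfkfb3 peak held 3. The Dusp1 peak held 1, and neither the Bach2 nor the 1700011L22Rik peak held an exact TRE or CRE. Of all KLA-only loci, 5.79% held 2 or more TREs in the central 200 bp.

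The count deposited with each peak is a whole number that was not scaled to library size, so it ranks peaks within a list and does not compare lists. The median count in Veh and KLA was 50 and 277 in the JunD lists and 25 and 31 in the Jun lists. It was 56 and 74 for ATF3 and 259 and 62 for PU.1. Veh and KLA counts given side by side for a locus therefore do not measure a change in binding. JunB counts at KLA-only loci ran from 16 to 202 with a median of 34, and the middle 50% lay between 25 and 49. The 463 Veh peaks had counts from 14 to 38 with a median of 19. At the 245 loci found in both treatments, the KLA count had a median of 56 and ran from 18 to 152, while the Veh count had a median of 21 and ran from 15 to 38. Within the KLA list, the peaks at these loci stood at a median percentile of 81.0 by count. Loci with a Veh peak were thus mostly strong KLA peaks, and the share of KLA peaks with a Veh peak went from 0.419% (95% CI 0.250 to 0.702) in the weakest quartile by count to 4.22% (3.59 to 4.95) in the strongest. The lowest IDR score in the Veh list was 928 against 540 in KLA, so the Veh list held only highly scored peaks. With KLA peaks under 928 left out, the KLA-only loci fell to 6563, and with the KLA list cut to its 463 highest counts, 426 of the 463 were still without a Veh peak.

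**Figure D1:**
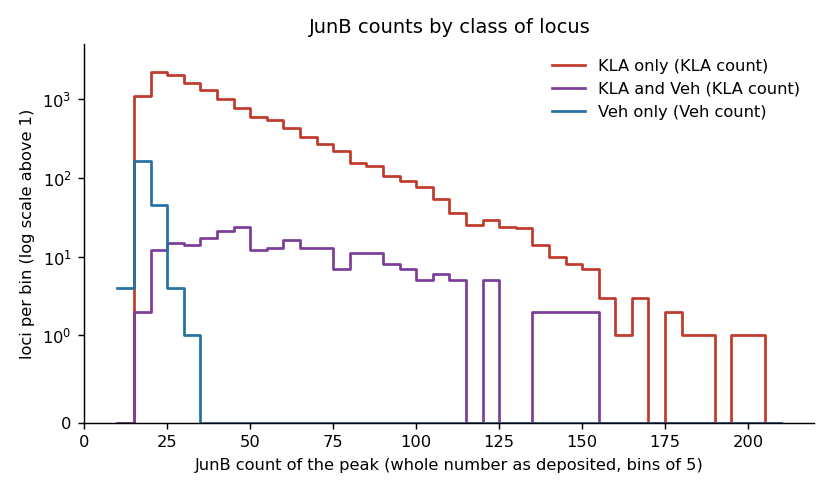
Number of JunB loci (vertical axis, log scale above 1) by the JunB count of the peak (horizontal axis, bins of 5) for loci with a peak in KLA only, in KLA and Veh (KLA count shown) and in Veh only (Veh count shown). The KLA-only loci reach a count of 202, whereas the Veh-only loci end at 31.

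The first question was whether the other Jun members already sat at the loci that JunB took up after KLA. In Veh, JunD had a peak at 8052 of the 13130 KLA-only loci (61.3%, 95% CI 60.5 to 62.2) and Jun at 6770 (51.6%, 50.7 to 52.4). At the 36063 AP-1 loci of C57BL/6 TGEMs without a JunB peak, each of which had a peak of at least 1 other member in either treatment, the same shares were 30.9% for JunD and 23.3% for Jun. As a pair, Jun or JunD was present in Veh at 8692 KLA-only loci (66.2%, 65.4 to 67.0) against 40.1% of the loci without JunB, a difference of 26.1 percentage points (95% CI 25.2 to 27.1). The remaining 4438 KLA-only loci (33.8%, 33.0 to 34.6) had neither Jun nor JunD in Veh.

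After KLA, JunD was found at 12351 of the KLA-only loci (94.1%, 95% CI 93.6 to 94.5) and Jun at 9823 (74.8%, 74.1 to 75.5), against 52.1% and 20.2% of the AP-1 loci without JunB. At least 1 of the pair was present at 12479 loci (95.04%, 94.7 to 95.4), against 54.7%. Following each locus from Veh to KLA, 8565 had Jun or JunD in both treatments, 3914 had neither in Veh and at least 1 in KLA, 127 had at least 1 in Veh and neither in KLA, and 524 had neither in either treatment. JunD thus accompanied JunB at nearly every locus in KLA, and at 4443 loci its own peak was also listed in KLA and not in Veh. A Jun peak was listed in KLA and not in Veh at 3897 of the loci, and in Veh and not in KLA at 844. The KLA lists were longer, with 31640 JunD peaks against 19653 in Veh and 17480 Jun peaks against 15548. Whether list length or depth adds to these numbers was not tested. The most frequent state, with 5446 loci (41.5%, 40.6 to 42.3), was Jun and JunD in both treatments, and the JunB count there had a median of 45.

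The JunB count went with this state. Loci with Jun and JunD in Veh had a median JunB count of 42, those with JunD only 32, those with Jun only 31 and those with neither 26. By quartile of the JunB count, the share with Jun or JunD in Veh was 43.8% (95% CI 42.1 to 45.5) in the weakest, 60.4% (58.7 to 62.1) and 72.7% (71.2 to 74.2) in the middle ones, and 87.8% (86.7 to 88.9) in the strongest. The strongest and weakest quartiles differed by 44.0 points (41.9 to 46.0).

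**Figure D2:**
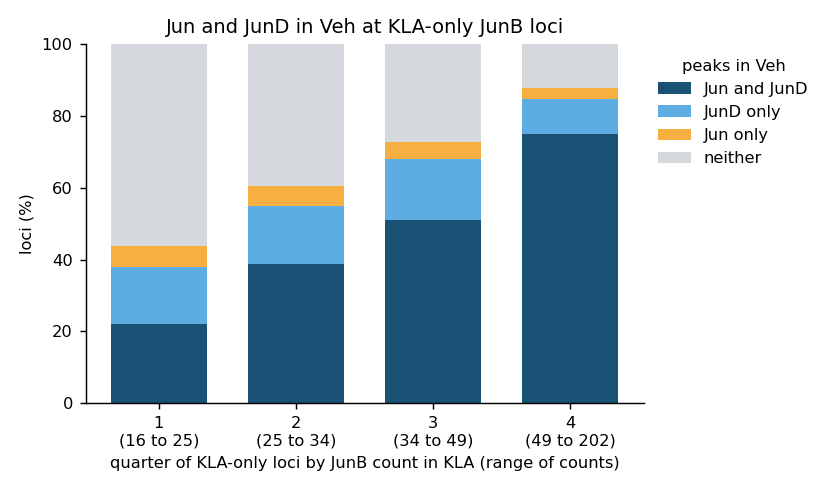
Share of KLA-only JunB loci (vertical axis, %) with Jun and JunD, JunD only, Jun only or neither in Veh, for the quartiles of the JunB count in KLA (horizontal axis, with the range of counts). The share with neither, shown in grey, was 33.8% over all loci and shrinks toward the strongest quartile.

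Seen from the lists of Jun and JunD, the share of peaks at a JunB locus went up with the count of the peak. A KLA-only JunB locus overlapped 5.90% (95% CI 5.41 to 6.45) of the JunD KLA peaks in the weakest quartile of the JunD count, 20.3% (19.4 to 21.2) and 49.1% (48.0 to 50.2) in the next, and 81.1% (80.2 to 81.9) in the strongest. For Jun in KLA these shares ran from 26.3% (25.1 to 27.7) to 85.1% (84.1 to 86.2). In Veh, before JunB was listed there, 74.3% (73.1 to 75.5) of the strongest JunD quartile and 75.2% (73.8 to 76.5) of the strongest Jun quartile lay at a later KLA-only JunB locus.

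Partners outside the Jun subfamily showed the same split between the treatments. Fos, an immediate-early partner of the Jun proteins, had a peak at 665 KLA-only loci in Veh (5.06%, 95% CI 4.70 to 5.45) and at 11892 in KLA (90.6%, 90.1 to 91.1), against 33.4% of the AP-1 loci without JunB in KLA. FosL2, which is also named Fra2, was at 22.2% (21.5 to 22.9) of them in Veh and at 50.2% (49.4 to 51.1) in KLA, against 6.11% and 10.4% of the AP-1 loci without JunB. ATF3, a member able to repress inflammatory genes, was listed at 66.7% (65.9 to 67.5) in Veh and at 95.3% (94.9 to 95.6) in KLA, against 38.6% and 65.7%. All 5 other members had a KLA peak at 5671 loci (43.2%, 42.3 to 44.0), where the median JunB count was 46, compared with 20 where only 1 other member had a peak.

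The lineage factors also had peaks at many of the loci in Veh. PU.1, a key regulator of macrophage identity, had a Veh peak at 6666 KLA-only loci (50.8%, 95% CI 49.9 to 51.6) and a KLA peak at 8897 (67.8%, 67.0 to 68.6), against 39.6% and 43.7% of the AP-1 loci without JunB. Its peak was listed in KLA and not in Veh at 2520 loci and in Veh and not in KLA at 289. The lowest listed PU.1 count was 110 in Veh (41573 peaks) and 25 in KLA (40645 peaks). Whether this adds to the difference was not tested. CEBPα was at 30.5% (29.7 to 31.3) in Veh and 45.1% (44.3 to 46.0) in KLA, against 17.2% and 18.8%. PPARg, with a list in Veh only, was at 58.0% (57.1 to 58.8), against 36.4%. No AP-1 member and no PU.1 had a Veh peak at 2784 KLA-only loci (21.2%, 20.5 to 21.9), and their median JunB count was 26.

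**Figure D3:**
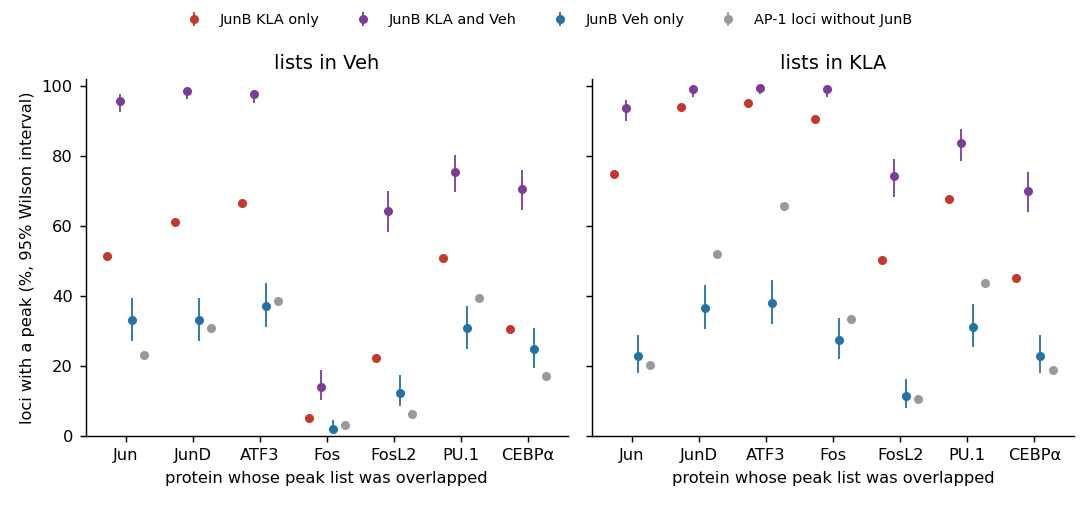
Share of loci with a peak of each other protein (vertical axis, %, bars are 95% Wilson intervals) in Veh (left) and KLA (right) for JunB loci in KLA only, in both treatments and in Veh only, and for AP-1 loci without JunB. Loci with JunB in both treatments lie highest for each protein, and the JunB Veh-only loci have JunD in Veh at 33.0%, close to the 30.9% of the loci without JunB.

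The KLA-only loci were mostly distal. Of the 13130, 844 lay within 1 kb of a protein-coding TSS (6.43%, 95% CI 6.02 to 6.86), 6109 in introns (46.5%, 45.7 to 47.4), 5684 between genes (43.3%, 42.4 to 44.1) and 493 in exons (3.75%, 3.44 to 4.09). The AP-1 loci without JunB lay at promoters in 17.2% (16.8 to 17.6) of cases (KLA-only minus these, -10.8 points, 95% CI -11.3 to -10.2). The median distance to a TSS was 25.4 kb for KLA-only loci and 17.3 kb for AP-1 loci without JunB, and 71.0% (70.2 to 71.8) of the KLA-only loci were over 10 kb away. Promoter loci were also the weaker ones, making up 8.53% (7.62 to 9.53) of the weakest JunB quartile and 3.99% (3.37 to 4.72) of the strongest. Having or lacking Jun or JunD in Veh made little difference to position, with 6.37% and 6.53% at promoters (difference -0.16 points, 95% CI -1.07 to 0.71).

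An exact TRE was found within the central 200 bp of 5356 KLA-only loci (40.8%, 95% CI 40.0 to 41.6), searched on both strands. The share was 22.0% (21.6 to 22.5) at AP-1 loci without JunB, 27.0% (26.6 to 27.4) over all AP-1 loci and 3.66% (3.46 to 3.87) over the 200 bp before the start of 32851 RefSeq genes (GRCm38.p6). Where a TRE was present, the one nearest the peak centre lay a median of 26 bp away, and 760 loci held 2 or more. The CRE, with the letters TGACGTCA, was rarer at KLA-only loci (0.91%, 0.76 to 1.08) than at AP-1 loci without JunB (1.67%, 1.55 to 1.81). TRE frequency went with the JunB count, from 30.6% (29.0 to 32.2) in the weakest quartile to 54.3% (52.6 to 56.0) in the strongest.

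The other motifs searched were NF-κB (GGNNTTTCC), ISRE (GAAANNGAA), PU.1 (ACTTCCT), CEBP (TTGCNNAA) and Runx (TGTGGTT), on both strands and with N for any base, and matches of different motifs could overlap. The NF-κB letters were present at 10.5% (95% CI 9.98 to 11.03) of KLA-only loci, against 6.63% (6.38 to 6.90) of AP-1 loci without JunB and 4.05% (3.85 to 4.27) of the RefSeq promoters. PU.1 letters were found at 19.3% (18.6 to 20.0) against 18.3% (17.9 to 18.7), CEBP letters at 16.2% (15.6 to 16.8) against 15.2% (14.9 to 15.6), Runx letters at 8.19% (7.73 to 8.67) against 6.58% (6.33 to 6.84) and ISRE letters at 7.69% (7.25 to 8.16) against 8.78% (8.49 to 9.08). The NF-κB letters thus stood further above the loci without JunB than the PU.1, CEBP, Runx or ISRE letters did.

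The frequency of the NF-κB letters differed by what was listed at rest. They were found at 791 of the 4438 KLA-only loci without Jun and JunD in Veh (17.8%, 95% CI 16.7 to 19.0) and at 587 of the 8692 with Jun or JunD in Veh (6.75%, 6.24 to 7.30), which makes the share with Jun or JunD differ by -11.1 points (-12.3 to -9.84). The difference held within each quartile of the JunB count, with 13.6% against 3.54% in the weakest (difference 10.0 points, 8.17 to 11.9) and 28.0% against 9.16% in the strongest (18.8 points, 14.5 to 23.5). TRE letters went the other way, at 35.0% (33.6 to 36.4) of the loci without Jun and JunD in Veh and 43.8% (42.7 to 44.8) of those with either. Within quartiles the TRE shares were alike in the weakest (31.5% and 29.5%, difference 1.99 points, -1.19 to 5.14) and apart in the strongest (40.0% and 56.3%). PU.1 letters were also less frequent where neither was present in Veh, at 14.3% (13.3 to 15.3) against 21.9% (21.01 to 22.8). ATF3 mattered to the NF-κB share as well. Among loci with neither Jun nor JunD in Veh, it was 9.83% (8.06 to 11.9) of 905 with ATF3 in Veh. Without ATF3 in Veh it was 19.9% (18.6 to 21.2) of 3533.

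**Figure D4:**
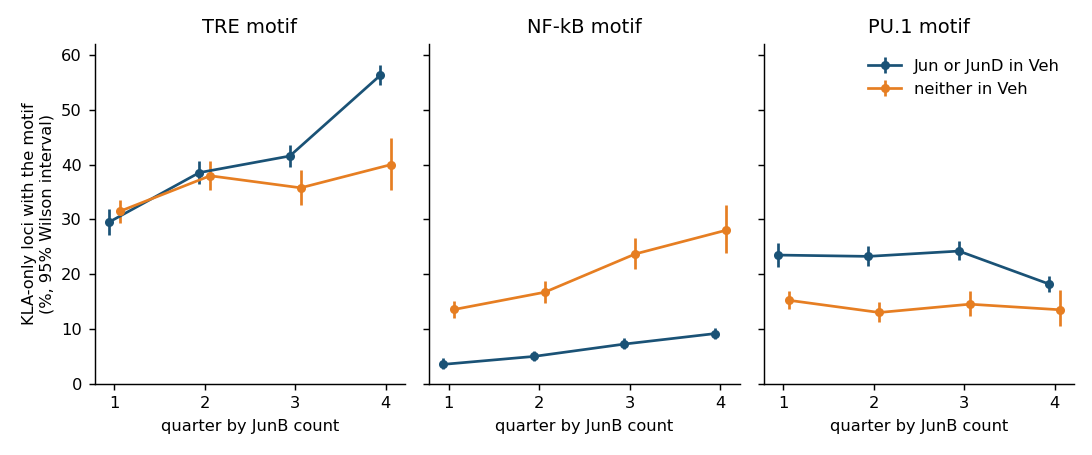
Share of KLA-only JunB loci (vertical axis, %, bars are 95% Wilson intervals) with TRE, NF-κB or PU.1 letters in the central 200 bp, by quartile of the JunB count (horizontal axis), for loci with Jun or JunD in Veh and loci with neither. The NF-κB share is higher without Jun and JunD in every quartile and reaches 28.0% in the strongest.

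Among loci with neither Jun nor JunD in Veh, those where PU.1 was listed in KLA and not in Veh held the NF-κB letters most often, at 25.4% (95% CI 23.1 to 27.9) of 1267. The share was 16.1% (14.0 to 18.5) of 1036 loci with PU.1 in Veh and 14.1% (12.7 to 15.7) of 2135 loci without PU.1 in either treatment. TRE letters were instead most frequent at the loci without PU.1, at 45.1% (43.0 to 47.2), against 30.5% (28.1 to 33.1) where PU.1 was listed in KLA only and 19.6% (17.3 to 22.1) where it was listed in Veh. These PU.1 classes rest on lists with unlike lowest counts, as given above. The sequences of 2 JunB peaks without Jun and JunD in Veh show these letters (mm10), with capitals for the NF-κB match on either strand and no exact TRE in either peak. The first was the strongest of its kind, 39.9 kb downstream of the Fos TSS, and the second, chosen after its values were seen, lay 4.34 kb upstream of Ccl5.
Fos locus, chr12:85513690-85513924, plus strand: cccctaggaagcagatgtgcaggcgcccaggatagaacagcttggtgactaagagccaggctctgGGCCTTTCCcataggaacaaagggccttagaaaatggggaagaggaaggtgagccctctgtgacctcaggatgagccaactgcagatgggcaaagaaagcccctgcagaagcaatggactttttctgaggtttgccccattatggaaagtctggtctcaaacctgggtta
Ccl5 locus, chr11:83534728-83534989, plus strand: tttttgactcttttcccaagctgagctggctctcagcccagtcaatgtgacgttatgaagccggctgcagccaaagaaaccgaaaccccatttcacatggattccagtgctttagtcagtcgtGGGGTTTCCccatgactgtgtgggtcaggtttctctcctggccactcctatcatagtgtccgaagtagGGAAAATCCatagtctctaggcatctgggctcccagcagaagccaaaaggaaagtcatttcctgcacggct
The Fos peak held 1 match and the Ccl5 peak held 2. A match to these letters is a description of the sequence and does not show that NF-κB was bound.

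The 15 KLA-only loci with the highest JunB counts ran from 202 down to 154. Jun and ATF3 had a Veh peak at all 15, JunD at 14, PU.1 at 12 and Fos at 6. TRE letters were present in the central 200 bp of 13 of them. None lay at a promoter, 3 were within 10 kb of a TSS, and JunB in KLA of BALB/cJ had a peak at each of the 15. They were thus loci with AP-1 already bound at rest.

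The strongest, 3.87 kb upstream of Itga5 (ENSMUSG00000000555.8, the integrin α5 chain of the fibronectin receptor), had a JunB count of 202. Jun counts there were 90 in Veh and 120 in KLA, JunD counts were 226 and 1086, ATF3 counts were 273 and 471, and FosL2 counts were 54 and 168. Fos had a count of 38 in Veh and no listed peak in KLA. Every member but Fos therefore had a peak there in both treatments.

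The Pfkfb3 locus (ENSMUSG00000026773.19, an enzyme that drives glycolysis) had a count of 199 and lay 124.3 kb downstream of the TSS. Jun was there at 106 in Veh and 134 in KLA, and ATF3 at 290 and 419, but no JunD peak was listed in either treatment. At Btg1 (ENSMUSG00000036478.8, an antiproliferative factor), 11.5 kb downstream, JunB had 189, Jun 68 and 104, and JunD 141 and 1010. The strongest JunB loci were therefore not uniform in their partners as listed.

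The next loci lay at Cep83 (count 183), Prss56 and Chst11 (175 each), Mrpl39 (167), Ocstamp and Sema4b (165 each) and Camk2d (160). Ocstamp encodes a membrane protein needed for the fusion of osteoclasts and of macrophages. At Mrpl39, Jun had a Veh count of 29 and no listed KLA peak. The last of the 15 lay at Susd1 (159), Sfn (158), Irf2bp2 (157), and at Bach1 and Noct (154 each). Bach1 encodes a bZIP repressor of heme oxygenase expression, and Noct a protein whose level follows the circadian clock.

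The 5 strongest loci without Jun and JunD in Veh lay at Fos (count 153), Ptges and Cd44 (136 each), Spsb1 (126) and Rab11fip4 (114). At the Fos locus (chr12:85513690-85513924) no other AP-1 member, PU.1 or CEBPα had a Veh peak. In KLA, the counts there were 110 for Jun, 1034 for JunD, 378 for ATF3, 293 for Fos, 127 for FosL2, 183 for PU.1 and 111 for CEBPα. The whole set of factors was thus listed there only after KLA. Ptges encodes the inducible prostaglandin E synthase. Its locus 2.42 kb into the gene had no AP-1 or PU.1 peak in Veh but a PPARg peak with a count of 192. In KLA, JunD was there at 804 and Jun at 80. The Cd44 locus, in the gene for the hyaluronan receptor, had JunD at 895 and Jun at 104 in KLA. Spsb1 and Rab11fip4 had ATF3 in Veh, with counts of 98 and 28, and Spsb1 also had Fos at 17, CEBPα at 98 and PPARg at 59.

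JunB had no other AP-1 member in either treatment at 163 KLA-only loci (1.24%, 95% CI 1.07 to 1.45). These were weak, with a median count of 19 and a highest of 51, and 12 of them had a JunB peak in BALB/cJ. TRE letters were present at 24.5% of them. The strongest lay in an intron of Bach2 (ENSMUSG00000040270.16, a bZIP repressor that competes for AP-1 sites), where PU.1 had a count of 127 in KLA and PPARg one of 202 in Veh. The other 4 named by count lay at Foxo1 and Rassf4 (32 each), Ergic1 (30) and a second site at Cd44 (27), with no PU.1 or CEBPα peak.

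Genes of the macrophage response were then read for KLA-only loci within 20 kb of their TSS. Over all 21951 protein-coding genes, 4680 had such a locus (21.3%). The gene lists were drawn up with results of these data known, so their counts are descriptions. AP-1 subunit genes had a locus at 12 of 15. The strongest in this list was 12.7 kb upstream of Atf3, with a JunB count of 79 and 5 loci in all, each with Jun or JunD in Veh. At Junb itself the strongest was 6.99 kb upstream, with a JunB count of 65, Jun at 20 in Veh and 47 in KLA, and JunD listed in KLA only at 683. Batf2 and Batf, which encode partners of Jun proteins in immune cells, had loci with counts of 53 and 51. At Batf no Jun or JunD peak was listed in Veh at either of its 2 loci, unlike at Atf3 and Junb.

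Of the immediate-early genes outside AP-1, 20 of 24 had a locus, and 16 of the 20 had one with Jun or JunD in Veh, as did 3590 of the 4680 genes with a locus overall (76.7%). Errfi1, a feedback inhibitor of EGF receptor signalling, had a count of 106 and Ier5 one of 101, while Klf4 and Klf2, zinc finger regulators of macrophage activation, had 86 and 82. At this Ier5 locus no AP-1 member had a Veh peak, whereas at the Klf2 locus Jun stood at 61 and JunD at 133 in Veh. Another JunB site within 20 kb of Ier5 had a Veh peak, with a count of 17, and a KLA peak. NF-κB subunits and feedback inhibitors had a locus at 15 of 17 genes. Tnip1, a partner of A20, led with a count of 139, where Jun had a peak in both treatments. Tnfaip3, which encodes A20, had 6 loci and a highest count of 88, the Nfkbia promoter had 80 and the Nfkbie promoter 75. Genes that shut off NF-κB signalling thus held the 4 highest counts of that list.

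Cytokine genes had a KLA-only locus at 18 of 20, with 76 loci counted over the genes. The strongest were at Il1a (count 136), Il27 (109), Il1rn (101) and Il1b (90), and each of these 4 sites had Jun and JunD in Veh. At the Il1b site, 2.40 kb upstream, Jun was at 47 in Veh and 98 in KLA. The Il6 promoter had a JunB count of 33, with no AP-1 peak in Veh. Il6 was chosen after its values were seen. Chemokine genes had a locus at 17 of 19. Ccl5, Ccl3 and Ccl6 had 9 loci each within the window. Jun or JunD was listed in Veh at none of those of Ccl5, at 5 of those of Ccl3 and at 7 of those of Ccl6. The highest JunB count at Ccl5 was 95. The Cxcl2 promoter also had 95, a locus that falls within 20 kb of Cxcl1 as well, and Ccl2 had 89. At the Cxcl10 promoter JunB had 58, with JunD at 38 and no Jun in Veh, and 3 loci in all lay within the window.

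Dual-specificity phosphatase genes, which switch off MAP kinases, had a locus at 8 of 12. Dusp1 was among the 8 through a locus 9.42 kb upstream of its gene record, which the annotation runs over chr17:26505590-26562128 on the minus strand. From a start further inside that record its loci would lie further away. Dusp7 led with 134 and was followed by Dusp3 (52), Dusp6 (50) and Dusp2 (39), the last with no Jun or JunD in Veh. Interferon response genes had one at 14 of 22. Their highest counts were 77 at Oasl1, 62 at Gbp5, 59 at Irf1 and 54 at a site shared by Rsad2 and Cmpk2. Macrophage lineage transcription factor genes had one at 11 of 15, led by Nr1h3 (72), Zeb2 (66), Etv3 (60) and Runx1 (58). Each of the 11 genes had a locus with Jun or JunD in Veh, against 76.7% of all genes with a locus. The 11 genes held 33 loci between them. Macrophage receptor genes had one at 20 of 22, with Itgax (90), Cd14 (84), Trem2 (80) and Tlr2 (74) in front. Ribosomal protein genes had one at 7 of 24, a share of 29.2% that was also above that of all genes and that moved to 13 genes within 50 kb, 3 within 5 kb and 4 by nearest gene. They were led by Rps9 (57), Rpl10a (31), Rpl23 (26) and Rps2 (24), and the genes of other tissues had a locus at 1 of 25, Apoa1 with a count of 30.

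**Figure D5:**
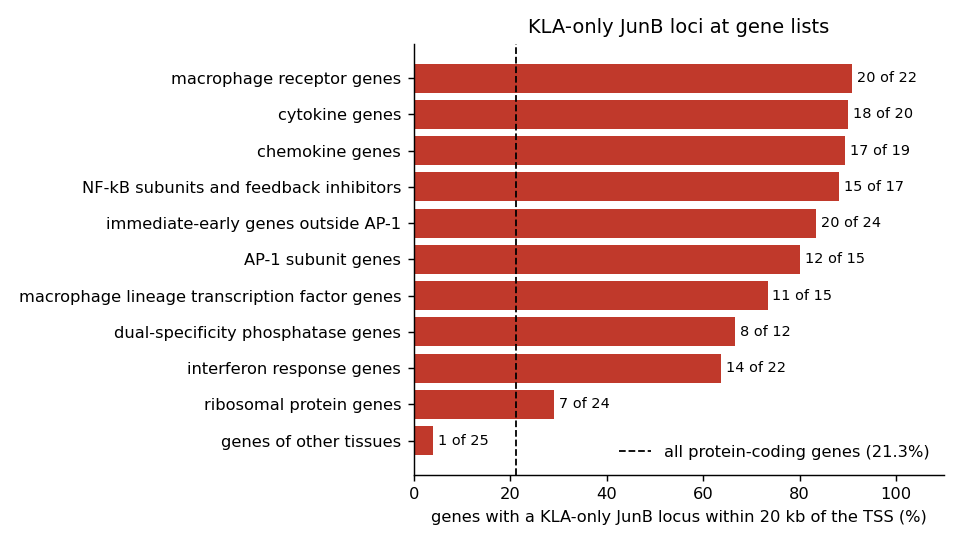
Share of the genes of each list (horizontal axis, %) with a KLA-only JunB locus within 20 kb of the TSS, with the number of genes beside each bar and the share of all protein-coding genes as a dashed line at 21.3%. Macrophage receptor, cytokine and chemokine genes lie at the top, and the genes of other tissues lie below the line.

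By western blot, the paper found no nuclear JunB protein in Veh. The 245 loci with a JunB peak in both treatments were AP-1 sites at rest by the peaks of the other members. JunD had a Veh peak at 242 of them (98.8%, 95% CI 96.5 to 99.6), Jun at 235 (95.9%, 92.7 to 97.8) and ATF3 at 240, and FosL2 was at 158 (64.5%, 58.3 to 70.2), against 22.2% of the KLA-only loci (KLA-only minus both, -42.3 points, -48.0 to -36.1). TRE letters were present at 138 (56.3%, 50.1 to 62.4) and NF-κB letters at 10 (4.08%, 2.23 to 7.35), the latter against 10.5% of the KLA-only loci (KLA-only minus both, 6.41 points, 3.11 to 8.34). The highest KLA count was found 43.6 kb upstream of the Dusp1 gene record described above, in an intron of another gene, with 26 in Veh and 152 in KLA. The others named by count lay at Dhx34 (30 and 152), Clic6 (27 and 149), Dot1l (32 and 146) and Slfn2 (28 and 143). Slfn2 encodes a schlafen protein that keeps T cells and monocytes quiescent, and Dot1l the histone H3 K79 methyltransferase.

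The 218 Veh-only loci fell into 2 kinds. Another AP-1 list overlapped 107 of them, and of these 58 (54.2%, 95% CI 44.8 to 63.3) had a JunB peak in KLA of BALB/cJ and 80 a JunD peak in KLA. The other 111 had no other AP-1 list at all, a share of 50.9% (44.3 to 57.5) of the class against 1.24% of the KLA-only loci. Of these 111, TRE letters were present at 1, JunB in KLA of BALB/cJ had a peak at 1 and PU.1 had a Veh peak at 7. Their counts ran from 14 to 22 with a median of 16. The 107 loci with another AP-1 list had counts from 15 to 31 and a median of 18, near the median of 19 over the whole Veh list. TRE letters were present at 18 of the 107. The peaks without AP-1 company thus had the lower median count of the 2 kinds and were almost without the AP-1 letters.

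The 10 strongest Veh-only loci belonged to the first kind. They lay at 1700011L22Rik (count 31), Zfp3 (27), Pitpnc1 (26), Nudt16l1 and Ptpn12 (25 each), Tprg, Zeb2, Ppp1r1c and Hipk2 (24 each) and Lilrb4a (23). These are nearest genes only, and the Zeb2 locus lay 1326 kb and the Tprg locus 340.0 kb from the TSS. Each had Jun and JunD in Veh, each had JunD in KLA, 8 had Jun in KLA, and 9 had JunB in KLA of BALB/cJ. At 1700011L22Rik, Jun stood at 76 in Veh and 94 in KLA and JunD at 152 and 883, so AP-1 was bound there after KLA although the C57BL/6 JunB list had no KLA peak.

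Veh peaks of JunB lay within 20 kb of 11 genes of the lists (5.12% of their genes), against 290 of all protein-coding genes (1.32%). Among them were Myc, with a Veh count of 29, the lineage factor genes Mitf (26) and Spi1 (20), which encodes PU.1, and the receptor gene Cd68 (24). The peaks near Myc, Spi1 and Cd68 had a KLA peak as well, as did 1 of the 2 near Mitf, whereas the peak near Ccl24 (21) had none.

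In TGEMs of male BALB/cJ mice, treated in the same way, the JunB lists held 21667 peaks in KLA and 9 in Veh. Of the C57BL/6 KLA-only loci, 10356 overlapped a BALB/cJ KLA peak (78.9%, 95% CI 78.2 to 79.6), from 53.1% (51.4 to 54.8) of the weakest quartile to 97.4% (96.8 to 97.9) of the strongest. The share was 85.0% (84.2 to 85.7) with Jun or JunD in Veh and 66.9% (65.5 to 68.3) with neither. None of the 9 BALB/cJ Veh peaks met a C57BL/6 Veh peak (0%, 95% CI 0 to 29.9), and 7 of the 9 met a BALB/cJ KLA peak. A BALB/cJ Veh peak lay at 6 of the C57BL/6 KLA-only loci. Conversely, 48.9% (48.2 to 49.6) of the BALB/cJ KLA peaks overlapped a C57BL/6 KLA peak. The gain after KLA was thus listed in each strain, while 9 BALB/cJ Veh peaks are too few to tell whether Veh peaks are shared between the strains.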

How the data were processed

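ChIP-seq reads were mapped to mm10 (BALB/cJ reads to a custom genome shifted back to mm10) with Bowtie2, and peaks were called with HOMER against input by the authors. Replicates were combined through the IDR under 0.05. The deposited lists give each peak a count, a whole number not scaled to library size, and how replicate counts were combined is not given in the sources used here. The deposited score is the scaled IDR. Library depth is unknown from these lists.

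Peaks meeting by 1 bp or more were joined with Python 3.11.15 (numpy 2.4.6, pandas 2.3.3). A locus held another list if a peak of it overlapped the JunB peak. Positions used the peak midpoint and GENCODE M21: promoter within 1 kb of a protein-coding TSS, then exon, intron, intergenic. Motifs were exact matches in the central 200 bp of the GRCm38 genome, and 1 Veh-only peak on an unplaced contig was left out of motifs. Peak starts were read as counted from 1, which the lists do not state, so the first base of a printed sequence may be the neighbouring one. Functions were tested on simulated data. The loci and gene lists were chosen with earlier results of these data known. Named were the 15 KLA-only loci with the highest counts, 5 without Jun and JunD in Veh, 5 without other AP-1 lists, 5 in both treatments, 10 in Veh only, and up to 4 genes a list, with Cxcl10. Cxcl11 and Mx2 were not matched in the annotation.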

Additional observations from a re-analysis of the deposited data

How the results depend on the processing

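Each list combines its replicates, so leaving out a replicate was not possible, and no paired analysis was possible because each condition has 1 list and no result comes from a test. The number of KLA-only loci was 6563 with only KLA peaks at or above the lowest Veh score and 426 with the KLA list cut to the length of the Veh list, and stayed within 1.5 times of 13130 under both other overlap rules and the count threshold. The share of JunB Veh peaks with a KLA peak was 52.9%, and 44.9% with centres within 100 bp, 47.1% with 50% reciprocal overlap, 43.2% with the score threshold and 7.99% with the cut list. Jun or JunD in Veh was found at 63.6% of KLA-only loci with the centre rule, 64.4% with reciprocal overlap, 80.3% of the strongest 50% of JunB peaks and 48.7% with the strongest 50% of the Jun and JunD lists. In KLA these values were 92.7%, 93.3%, 99.6% and 79.0%. The promoter share was 13.0% within 3 kb, 10.0% with all annotated genes and 4.95% for the strongest 50%. The TRE share was 30.5% in the central 100 bp and 47.2% for the strongest 50%. Counts of genes per list stayed within 1.5 times in 24 of 33 cases, and the 9 others were the AP-1, immediate-early, lineage factor and receptor genes at 5 kb, the genes of other tissues at 5 and 50 kb, and the ribosomal protein genes at 5 and 50 kb and by nearest gene. Over all genes the share was 9.60% at 5 kb and 36.8% at 50 kb. Weak binding, and JunB binding in Veh under the IDR threshold, cannot be seen in these lists.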

Other observations

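Another KLA-only JunB locus was within 12.5 kb for 8071 of the 13130 (61.5%), against 73.1% for the more numerous 36063 AP-1 loci without JunB among themselves, and 337 runs held 5 or more loci with steps of at most that distance. The longest run, chosen after its values were seen, had 25 loci over 69.0 kb nearest to Tomm20 (chr8:126826424-126895431), 19 of them with Jun or JunD in Veh. Another run of 16 loci over 61.2 kb lay by Irf2bp2 on the same chromosome, and 14 loci lay at Cd44, 7 of them with Jun or JunD in Veh. By nearest gene, Trib1, which encodes a pseudokinase that sets CEBPα levels, had the most loci with 40, of which 33 had Jun or JunD in Veh, and Cd44 had 29, of which 11 did. Tnfaip3 had 21, of which 9 did.

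The 2 lists of Fos differed in how they met JunB. Of the strongest quartile of Fos Veh peaks, 18.4% (95% CI 15.1 to 22.2, n = 451 peaks) lay at a KLA-only JunB locus, against 43.0% (38.5 to 47.6) of the weakest. In KLA the order was the other way, with 86.6% (85.7 to 87.4) of the strongest and 14.5% (13.7 to 15.4) of the weakest. Chromosome 11 had 8.18 KLA-only loci per Mb, whereas the X chromosome had 0.60, in male cells. The density of other AP-1 loci per chromosome was not computed, so whether this is particular to JunB was not tested.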
